A study of Mus musculus with 3 samples.

Results

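Genes of transforming growth factor beta (TGF-beta) signalling were followed across the cells of injured mouse brain: the ligand genes Tgfb1, Tgfb2 and Tgfb3, the receptor genes Tgfbr1 and Tgfbr2, the signal transducer Smad3, and the feedback genes Smad7 and Skil. These genes were taken by name, 8 of 55357 genes listed in each matrix, and all 8 were found once. The measurement was droplet single-cell RNA sequencing of brain tissue beside the lesion on the left side, from male C57BL/6 mice 6 to 8 weeks old. There were 3 groups: sham mice, for which the labels list no treatment, mice with traumatic brain injury (TBI) given phosphate-buffered saline for 3 days (TBI+PBS), and mice with TBI given interleukin-25 (TBI+IL-25). The IL-25 dose was 1 µg per mouse, first given no more than 30 minutes from injury and then once a day over 3 days. IL-25 is a cytokine best known for acting on type 2 lymphocytes. Each group was 1 library, the number of animals pooled in it is not given by the labels, and the type of injury is not described there. Every difference below is therefore between libraries and not between conditions, no p-value is given, and each 95% interval covers counting error only.

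TGF-beta ligands are secreted in a latent form, bound to their own propeptide and to matrix or membrane proteins, and have to be freed before they act. The active ligand binds TGFBR2, which phosphorylates TGFBR1, and TGFBR1 then phosphorylates SMAD2 and SMAD3, which enter the nucleus with SMAD4. SMAD7 blocks the activated receptor and SKIL (SnoN) represses SMAD target genes, and both genes are themselves induced by the pathway. In the brain, TGF-beta signalling is known for keeping microglia in their homeostatic state and for its part in astrocyte reactivity and scar formation.

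The RefSeq promoter table (build GRCm38.p6) had an entry for 5 of the 8 genes: Tgfb1, Tgfb2, Tgfbr1, Tgfbr2 and Smad3. Skil, Smad7 and Tgfb3 have no entry. The 250 bases before the annotated start are shown for both ligands and both receptors that carry the cell-type pattern below, each on the strand of its gene. Tgfbr1 has 2 annotated starts, and both windows are shown. The motifs searched, on both strands, were CAGAC, the core bound by SMAD3 and SMAD4, GAGGAAG, a core bound by ETS factors, and TGANTCA, the AP-1 site. Capitals mark matches.
Tgfb1, chr7:25686752-25687001, plus strand: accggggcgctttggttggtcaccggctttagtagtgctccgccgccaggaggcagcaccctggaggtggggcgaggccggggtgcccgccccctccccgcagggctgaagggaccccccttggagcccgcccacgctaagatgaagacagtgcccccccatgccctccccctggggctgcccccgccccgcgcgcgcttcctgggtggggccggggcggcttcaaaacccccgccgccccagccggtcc
Tgfb2, chr1:186705990-186706239, minus strand: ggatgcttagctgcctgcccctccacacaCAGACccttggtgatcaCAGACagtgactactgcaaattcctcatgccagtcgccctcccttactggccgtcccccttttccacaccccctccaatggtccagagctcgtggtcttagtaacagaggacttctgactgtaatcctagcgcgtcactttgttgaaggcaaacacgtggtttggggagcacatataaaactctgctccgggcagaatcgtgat
Tgfbr1, first start, chr4:47352972-47353221, plus strand: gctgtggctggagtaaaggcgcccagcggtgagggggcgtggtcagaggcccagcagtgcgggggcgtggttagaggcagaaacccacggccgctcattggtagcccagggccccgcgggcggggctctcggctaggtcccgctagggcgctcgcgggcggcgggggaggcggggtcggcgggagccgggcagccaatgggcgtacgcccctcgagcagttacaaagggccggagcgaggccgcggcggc
Tgfbr1, second start, chr4:47385966-47386215, plus strand: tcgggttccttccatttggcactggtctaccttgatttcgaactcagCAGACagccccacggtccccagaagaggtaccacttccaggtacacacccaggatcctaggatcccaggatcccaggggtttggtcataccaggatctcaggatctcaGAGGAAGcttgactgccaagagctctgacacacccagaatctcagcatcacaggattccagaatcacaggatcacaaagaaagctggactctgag
Tgfbr2, chr9:116175364-116175613, minus strand: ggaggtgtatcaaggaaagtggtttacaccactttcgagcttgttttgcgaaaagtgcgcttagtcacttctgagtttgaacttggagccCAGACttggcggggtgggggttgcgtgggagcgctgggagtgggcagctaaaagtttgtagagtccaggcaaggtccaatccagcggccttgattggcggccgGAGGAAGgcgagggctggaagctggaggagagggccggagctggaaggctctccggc
CAGAC occurred 2 times in the Tgfb2 window and 1 time each in the windows of Tgfbr2 and of the second Tgfbr1 start. GAGGAAG occurred 1 time in each of those Tgfbr1 and Tgfbr2 windows, and no window shown held TGANTCA. The windows of Tgfb1 and of the first Tgfbr1 start held none of the 3 motifs and were 75.2% and 74.8% G or C, against 53.6% for Tgfb2 and 58.4% for Tgfbr2. Of 32851 windows of this length in the table, 42.2% held CAGAC, 10.6% held GAGGAAG and 6.75% held TGANTCA on either strand. A match is a description of letters and not of a bound site, and the matrices, counted on another build, do not show which start was used.

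The libraries held 8939 (sham), 10643 (TBI+PBS) and 14222 (TBI+IL-25) barcodes and 39536447 to 61372408 UMIs (unique molecular identifiers, each standing for 1 captured transcript). After filters and removal of called doublets, 8720, 10303 and 13527 cells were left, with median depths of 4112, 4667 and 3839 UMIs. Cells were clustered without the 8 genes and clusters were named from marker lists, with "-like" for a class called this way. Microglia-like cells numbered 2975, 4144 and 5453 and astrocyte-like cells 3061, 3845 and 5076, in the order sham, TBI+PBS, TBI+IL-25. All 10 markers of each class had UMIs in both classes, so their presence alone does not tell the classes apart. In sham, the summed microglia markers gave 35132 of every 1000000 UMIs in microglia-like cells and 1163 in astrocyte-like cells. The astrocyte markers gave 24533 in astrocyte-like cells and 622 in microglia-like cells. Unnamed clusters held 25.9%, 10.9% and 12.4% of cells. The largest of them, cluster 5, held 2025, 447 and 78 cells and carried all 10 microglia markers, but an ILC2 marker stood among its 10 leading genes. Cluster 7 (1, 502 and 1262 cells) was shallow and carried 9 of 10 astrocyte markers, and cluster 13 (229, 177 and 342 cells) carried all 10 astrocyte markers with an oligodendrocyte precursor marker among its leading genes. Pairs of libraries shared 24 to 39 barcodes. The TBI+IL-25 library stood apart in 2 RNA measures: Lars2 was at 256 CPM (UMIs of the gene per 1000000 UMIs of the cells summed) in its kept cells against 26.5 and 25.3, and haemoglobin RNA was at 0.147 CPM over all its barcodes against 98.9 in sham and 111 in TBI+PBS.

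In microglia-like cells, the resident macrophages of the brain, the ligand gene Tgfb1 and the receptor gene Tgfbr1 stood lower in both injury libraries than in sham. Tgfbr2 stood higher in TBI+IL-25 than in both other libraries, while Smad3, Smad7 and Skil stayed within 1.5-fold. In astrocyte-like cells the pattern was another one: Smad3, Smad7 and Skil stood several-fold higher in both injury libraries, and the ligand gene Tgfb2 was highest in TBI+IL-25. The cells of each class fell into different clusters by library, and in the cluster that the libraries shared most evenly several of these differences had other sizes. There the astrocyte-like ratios over sham were 1.05 and 1.21 for Smad7, 1.28 and 2.13 for Smad3, and 1.5 and 0.525 for Skil, in TBI+PBS and in turn TBI+IL-25. The microglia-like ratios of TBI+PBS over sham in its own shared cluster were 0.757 for Tgfb1 and 0.681 for Tgfbr1, inside 1.5-fold, while that of TBI+IL-25 over sham was 1.92 for Tgfbr2. The astrocyte-like Tgfb2 ratios over sham in the shared cluster were 1.76 and 2.21.

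**Figure D1:**
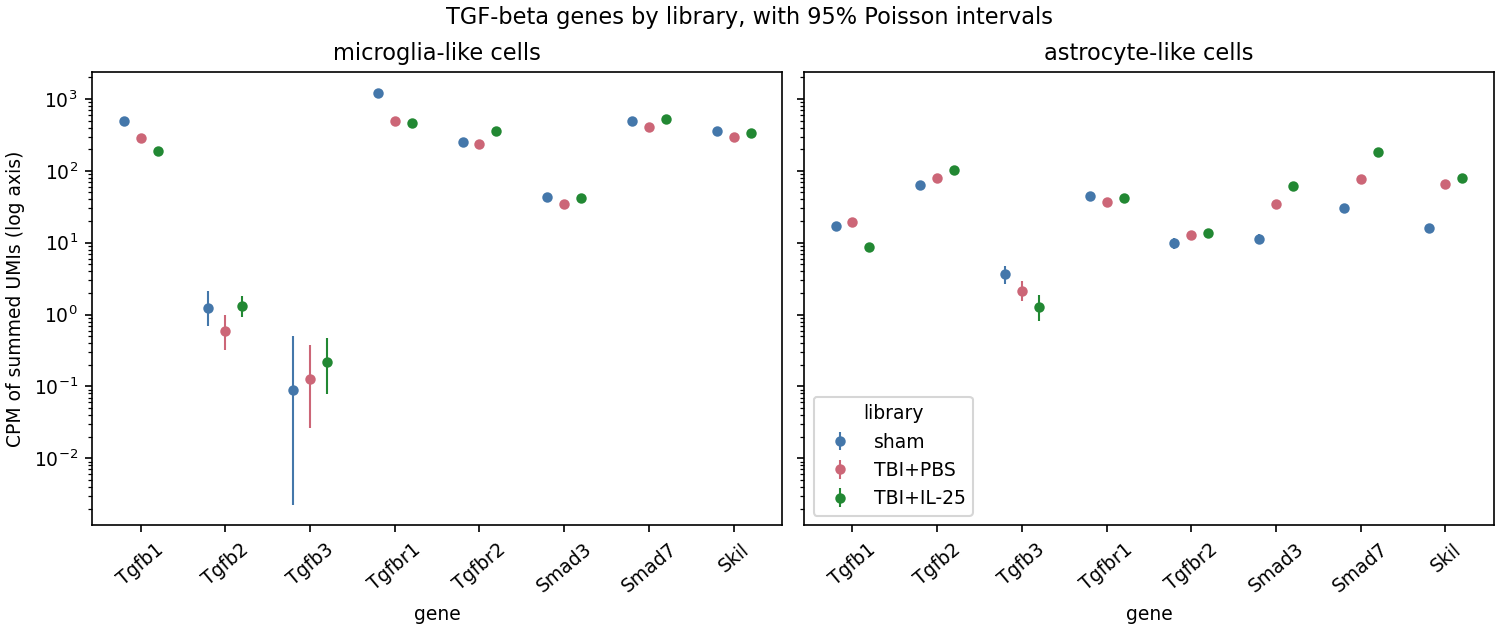
Level of each of the 8 genes in CPM of summed UMIs (log axis) in microglia-like cells (left) and astrocyte-like cells (right), 1 point per library with its 95% Poisson interval. Tgfbr1 in microglia-like cells is at 1196 CPM in sham and at 489 and 458 CPM in the injury libraries, and Smad7 in astrocyte-like cells is at 30.5, 76.1 and 180 CPM.

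The counts can be read against all genes measured in the same cells, a gene being measured with at least 50 UMIs over the 2 libraries compared. In microglia-like cells, TBI+PBS over sham, 0 of 6 measured genes were at least 1.5-fold higher, where 12.9% of all 12526 measured genes were, and 2 (Tgfb1 and Tgfbr1) were at least 1.5-fold lower, where 19.9% were. In TBI+IL-25 over sham, 0 of 7 were higher (17.4% of all genes) and the same 2 were lower (29.9% of all genes). In TBI+IL-25 over TBI+PBS, 2 of 7 were higher (Tgfb2 and Tgfbr2, 9.77% of all genes) and 1 was lower (Tgfb1, 13.6% of all genes). Of the 2 higher, Tgfb2 rested on 36 against 14 UMIs and turned to 0.847 after subtraction of astrocyte RNA, and Tgfbr2 was at 1.47 or 1.48 under 3 other settings. The lower count of 2 of 7 in TBI+IL-25 over sham was close to that background share.

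In astrocyte-like cells all 8 genes were measured. In TBI+PBS over sham, 3 were at least 1.5-fold higher (Smad3, Smad7 and Skil), where 13.1% of all 14237 measured genes were, and 1 was lower (Tgfb3), where 13.7% were. In TBI+IL-25 over sham, 4 were higher (the same 3 and Tgfb2, 19.1% of all genes) and 2 were lower (Tgfb1 and Tgfb3, 35.2% of all genes). That is a smaller share than among all genes, and the Tgfb1 ratio turned from 0.509 to 2.22 after subtraction of microglia RNA. In TBI+IL-25 over TBI+PBS, 2 were higher (Smad3 and Smad7, 9.32% of all genes) and 2 were lower (Tgfb1 and Tgfb3, 26.1% of all genes), near the background share. The median log2 ratio of the 8 genes was 0.33 in TBI+PBS over sham and 0.57 in TBI+IL-25 over sham, beside -0.04 and -0.25 over all measured genes. The comparisons against sham share the sham library, so their ratios are not independent of each other.

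**Figure D2:**
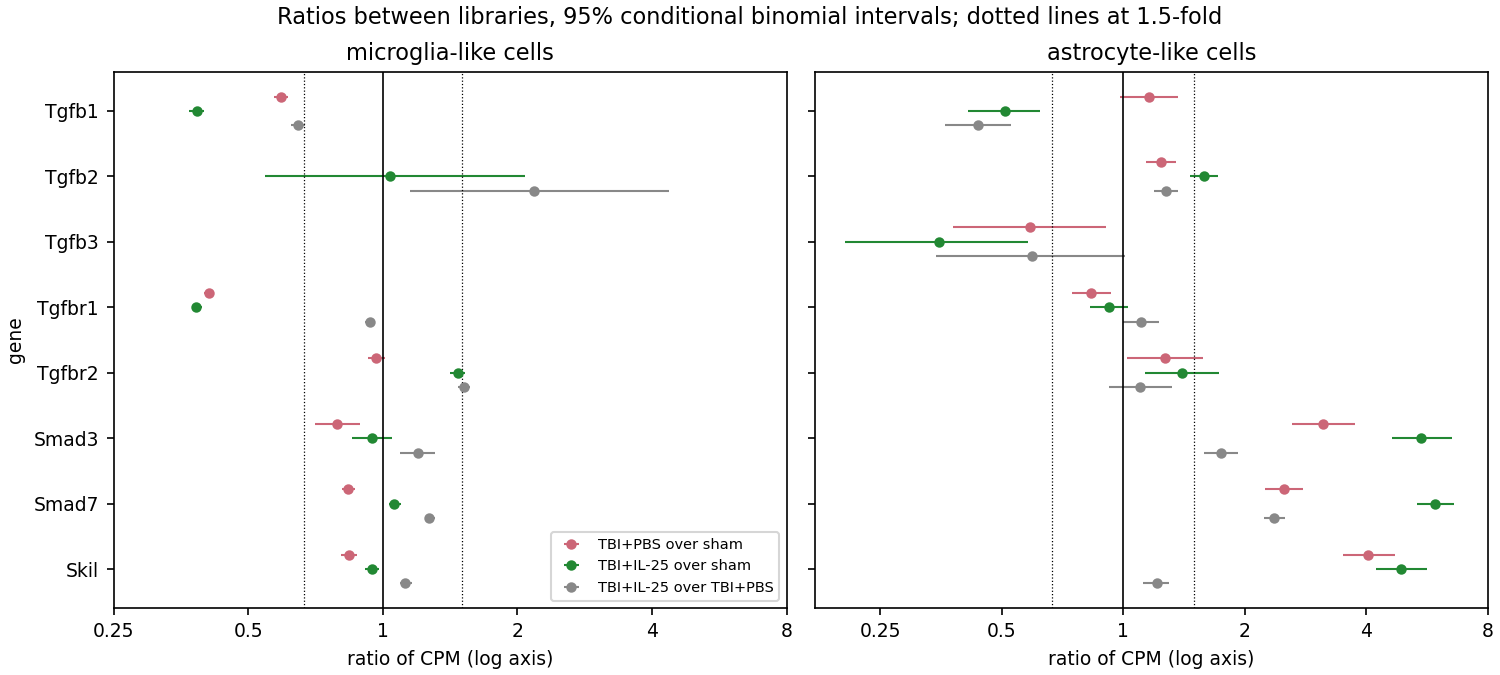
Ratio of CPM between libraries (log axis) with its 95% conditional binomial interval for each measured gene, in microglia-like (left) and astrocyte-like cells (right); colours mark the 3 pairs of libraries and dotted lines mark 1.5-fold in either direction. In astrocyte-like cells the ratios of Smad3, Smad7 and Skil over sham lie between 2.50 and 5.92, and in microglia-like cells those of Tgfb1 and Tgfbr1 lie between 0.383 and 0.593.

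Tgfb1 encodes the TGF-beta ligand made by immune cells. Its level in microglia-like cells was 486 CPM in sham, 288 in TBI+PBS and 187 with TBI+IL-25. The order was the same in the share of microglia-like cells with a Tgfb1 UMI, 78.4%, 73.9% and 54.5%, and, with every cell thinned to 1000 UMIs, 39.2%, 25.4% and 17.6%. Thinning left out 77, 52 and 161 cells. The ratio was 0.593 (95% interval 0.572 to 0.614) for TBI+PBS over sham, 0.384 (0.369 to 0.399) for TBI+IL-25 over sham, and 0.647 (0.624 to 0.671) for TBI+IL-25 over TBI+PBS. The intervals of the 3 libraries did not overlap. With size factors from the median of ratios the last value was 0.699, inside 1.5-fold.

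Monocyte/macrophage-like cells had the highest Tgfb1 level of any named class in both injury libraries, at 330 CPM (308 to 353) in TBI+PBS and 258 (220 to 302) with TBI+IL-25. Both lay above the interval of microglia-like cells in that library. The class had 3 markers of its own list and 3 of border-associated macrophages among its 10 leading genes, so its name does not tell these types apart. With 10 such cells in sham, under the minimum of 20 cells, no sham level was read. Below microglia-like cells, in TBI+PBS, B cell-like cells were at 163 CPM of Tgfb1 (84.4 to 285), T cell-like cells at 136 (96.9 to 185), pericyte/smooth muscle-like cells at 135 (67.6 to 242) and endothelial cell-like cells at 121 (101 to 144), and these 4 neighbours did not differ beyond their intervals. The pericyte/smooth muscle-like value was 47.0% of the microglia-like level, inside the 17.5% to 48.3% at which these 22 cells carried the microglia markers. The other 3 classes were at 56.7%, 47.1% and 42.0%, above marker ranges that ended at 28.9%, 10.6% and 7.24%. Neuroblast-, ependymal cell-, oligodendrocyte- and choroid plexus cell-like cells were at 14.1 CPM or less in that library. Microglia-like cells held 55.2%, 76.0% and 90.8% of all Tgfb1 UMIs of their library. These shares leave out unnamed cluster 5, which carried all 10 microglia markers. It held 4030, 637 and 63 of the 9823, 8892 and 5687 Tgfb1 UMIs, so no trend between libraries was read from the shares. Unnamed cluster 5 was at 475, 376 and 241 CPM of Tgfb1, with an interval in TBI+PBS (347 to 406) that overlapped the monocyte/macrophage-like one. Single microglia-like clusters of TBI+PBS lay on both sides of that interval, with cluster 1 at 383 CPM (358 to 409) and cluster 16 at 179 (163 to 197). The ranking above therefore holds for whole classes only.

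In astrocyte-like cells Tgfb1 was at 16.9, 19.7 and 8.61 CPM in sham, TBI+PBS and TBI+IL-25. That was 3.48%, 6.83% and 4.62% of the microglia-like level, and the 10 microglia markers stood at a median of 3.03%, 3.14% and 1.99% of theirs in the same cells. The summed level of those 10 markers in astrocyte-like cells was 1163, 910 and 490 CPM, all 10 with UMIs in every library. Once microglia RNA was subtracted in the proportion of these markers, the ratio for TBI+IL-25 over sham turned from 0.509 to 2.22 and that for TBI+PBS over sham moved from 1.16 to 4.81. No direction was therefore read for Tgfb1 in astrocyte-like cells.

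Tgfb2 encodes the ligand typical of glia and epithelia, and the classes that carried it were others than those of Tgfb1. Choroid plexus cell-like cells, the epithelium that makes cerebrospinal fluid, had the highest Tgfb2 level in both injury libraries, at 294 and 310 CPM after 209 in sham. In sham, endothelial cell-like cells were level with them at 213 CPM (141 to 310), on 27 UMIs. Endothelial cell-like cells of the injury libraries were lower, at 110 CPM (90.5 to 132) in TBI+PBS and 87.5 (51.9 to 138) with TBI+IL-25. Astrocyte-like cells were at 64.1, 79.8 and 102 CPM, and their 3 intervals did not overlap. They held 75.5%, 75.5% and 73.4% of all Tgfb2 UMIs.

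The Tgfb2 ratio in astrocyte-like cells was 1.24 (1.14 to 1.35) for TBI+PBS over sham and 1.59 (1.46 to 1.72) for TBI+IL-25 over sham. Ependymal cell-like cells were at 73.0 CPM of Tgfb2 in TBI+PBS and 46.5 with TBI+IL-25, and pericyte/smooth muscle-like cells at 111 CPM in TBI+PBS on 9 UMIs. Microglia-like cells were at 1.25, 0.597 and 1.30 CPM of Tgfb2, on 14, 14 and 36 UMIs, which was 1.96%, 0.748% and 1.28% of the astrocyte-like level. The 10 astrocyte markers stood at 1.21%, 0.938% and 1.37% of their own level in microglia-like cells, over ranges of 0.847% to 7.80%, 0.675% to 4.46% and 0.810% to 3.76%, and Tgfb2 lay inside each range. The ratio of 2.18 for Tgfb2 in microglia-like cells of TBI+IL-25 over TBI+PBS became 0.847 after subtraction.

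Tgfb3, the third ligand gene, was scarce, with 70, 89 and 89 UMIs over all kept cells of the 3 libraries. In astrocyte-like cells it was at 3.62 CPM (2.68 to 4.79) in sham, 2.13 (1.53 to 2.89) in TBI+PBS and 1.27 (0.813 to 1.89) with TBI+IL-25, on 49, 41 and 24 UMIs. The ratio for TBI+IL-25 over sham was 0.350 (0.205 to 0.581), and that for TBI+PBS over sham was 0.587 (0.378 to 0.908). The latter was 0.708 where each cell weighed equally. Oligodendrocyte-like cells, the myelin-forming cells, were in the injury libraries at 11.5 CPM (7.43 to 16.9) in TBI+PBS and 12.5 (8.68 to 17.3) with TBI+IL-25. No interval of any other class with at least 3 UMIs lay above theirs. In microglia-like cells Tgfb3 had 1, 3 and 6 UMIs, and no fold was read.

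**Figure D3:**
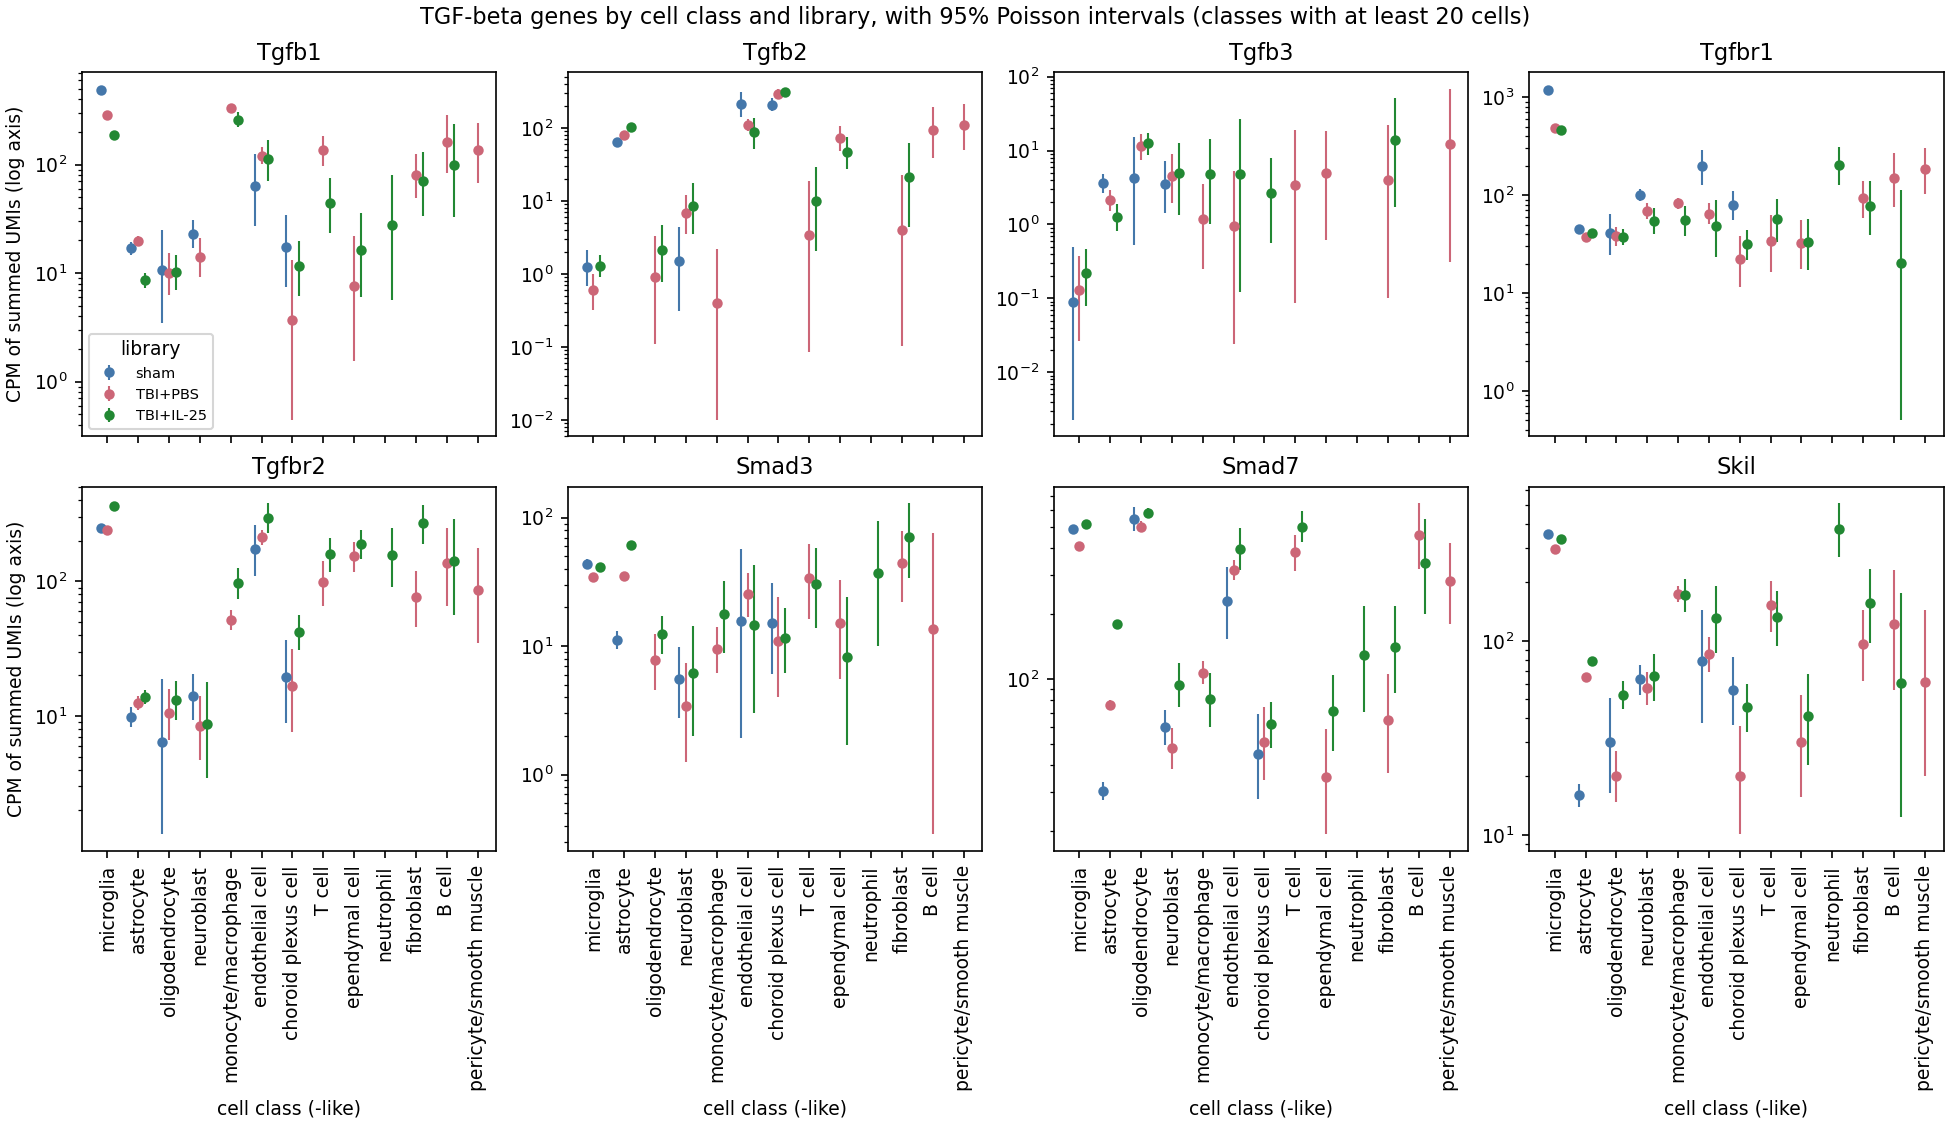
Level of each gene in CPM of summed UMIs (log axis) by cell class, 1 point per library with at least 20 cells of the class and its 95% Poisson interval; libraries with no UMI of the gene in a class are not drawn. Tgfb1 is high in monocyte/macrophage and microglia classes, Tgfbr1 in microglia, and Tgfbr2 in microglia and endothelial classes, among others. Tgfb2 is high in choroid plexus, endothelial and astrocyte classes, among others. Smad7 is high in oligodendrocyte, microglia, T cell and B cell classes, among others.

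Tgfbr1 encodes the type I receptor kinase that phosphorylates SMAD2 and SMAD3. It was at 1196 CPM (1176 to 1217) in microglia-like cells of sham, 489 (480 to 498) in TBI+PBS and 458 (451 to 466) with TBI+IL-25. Sham stood far above both injury libraries, which were close to each other. The ratio was 0.409 (0.399 to 0.419) for TBI+PBS over sham, 0.383 (0.374 to 0.393) for TBI+IL-25 over sham and 0.937 (0.914 to 0.962) between the injury libraries. With cells thinned to 1000 UMIs, 68.7% of sham microglia-like cells had a Tgfbr1 UMI, against 40.2% in TBI+PBS and 35.7% with TBI+IL-25. Without thinning the shares were 95.2%, 84.4% and 79.1%. Astrocyte-like cells, read as the class with a low level, had thinned shares of 2.90%, 2.91% and 3.76% at median depths of 4432, 4638 and 3437 UMIs, against 3772, 4899 and 4767 in microglia-like cells.

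No other class with at least 20 cells reached the microglia-like level of Tgfbr1 in any library. In sham, endothelial cell-like cells were at 197 CPM (128 to 291), or 16.5% of the microglia-like level, where the microglia markers stood at 8.32% to 15.8% of theirs. Neuroblast-like cells, the young neurons, were at 101 CPM (87.1 to 116), or 8.41%, inside the marker range of 3.90% to 16.0%. In TBI+IL-25, neutrophil-like cells were at 203 CPM (127 to 307), or 44.2%, with markers at 15.7% to 42.7%. No order of these classes was read from such values. Neuroblast-like cells were at 69.0 CPM in TBI+PBS and 54.4 with TBI+IL-25, and endothelial cell-like cells at 64.8 and 48.6. Monocyte/macrophage-like cells, where Tgfb1 was highest, were at 82.2 and 55.2 CPM of Tgfbr1, or 16.8% and 12.0% of the microglia-like level, with markers at 3.79% to 14.4% and 4.32% to 21.2%. Astrocyte-like cells were at 44.8, 37.4 and 41.4 CPM, or 3.75%, 7.64% and 9.03% of the microglia-like level. After subtraction of microglia RNA, the Tgfbr1 ratios over sham in astrocyte-like cells moved from 0.834 to 2.57 in TBI+PBS and from 0.923 to 3.76 in TBI+IL-25, so no direction was read there.

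The microglia-like cells of the 3 libraries were of different clusters. Cluster 1 held 2365 of the sham cells and clusters 0 and 6 most of TBI+PBS (1225 and 1228), while clusters 0 and 9 led in TBI+IL-25 (2515 and 1100). Inside every cluster with at least 50 cells in sham and an injury library, Tgfbr1 was higher in sham. In cluster 1 the Tgfbr1 level was 1253, 937 and 859 CPM in sham, TBI+PBS and TBI+IL-25. In cluster 6, the one most evenly shared, it was 1017, 692 and 643 CPM, on 262, 1228 and 500 cells. The ratio over sham there was 0.681 in TBI+PBS, inside 1.5-fold, and 0.632 in TBI+IL-25. Cluster 5, left unnamed, was at 1164, 897 and 870 CPM of Tgfbr1.

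Between clusters of the same library, Tgfbr1 differed more than between the injury libraries. The lowest level was in cluster 16, at 125 CPM (111 to 140) in TBI+PBS and 183 (163 to 205) with TBI+IL-25, followed by cluster 9 at 218 and 322 CPM. Cluster 16 carried 6 of the 10 microglia markers, and both clusters had fewer than 50 cells in sham. Tgfb1 in cluster 16 was at 179 and 158 CPM, near cluster 9 at 207 and 173. In cluster 6, Tgfb1 was at 453, 343 and 203 CPM, and its ratio over sham was 0.757 in TBI+PBS, inside 1.5-fold. The summed level of the 10 microglia markers in microglia-like cells was itself lower with injury, at 35132, 27103 and 18872 CPM, and its part in the Tgfb1 and Tgfbr1 difference was not tested.

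**Figure D4:**
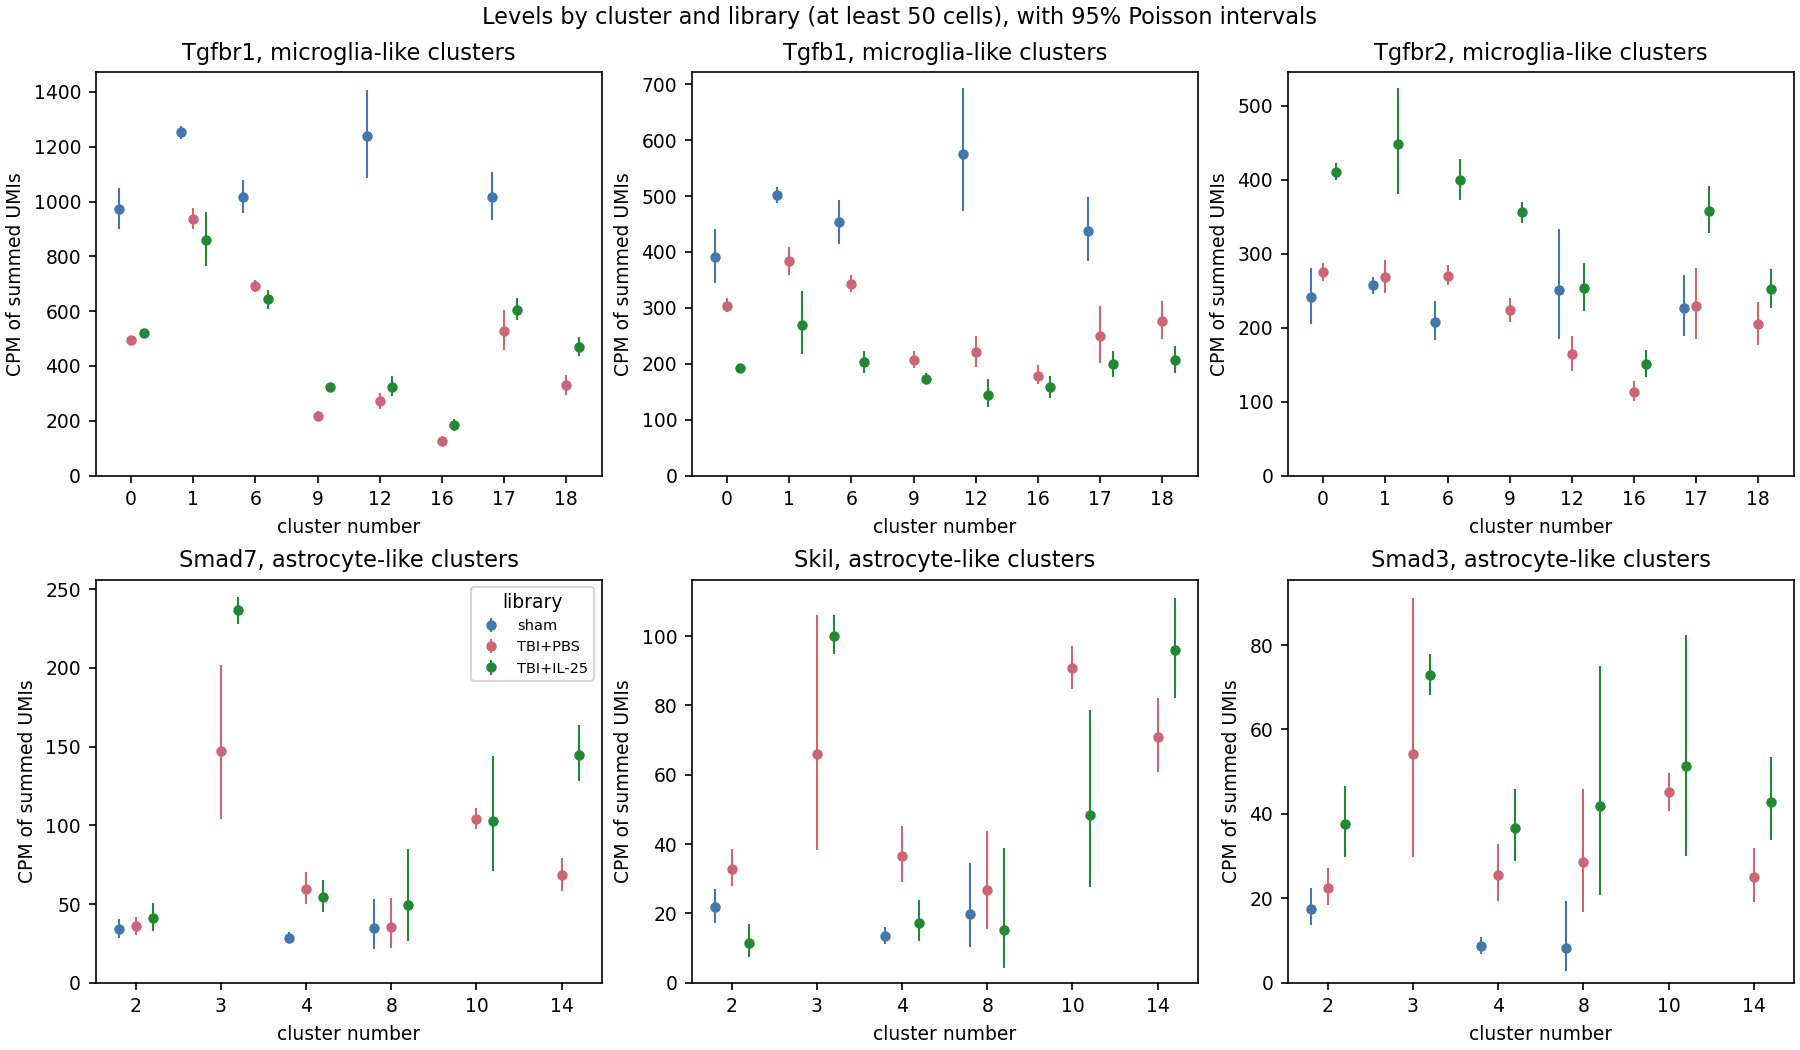
Level in CPM of summed UMIs by cluster number, 1 point per library with at least 50 cells of the cluster and its 95% Poisson interval. The upper row shows Tgfbr1, Tgfb1 and Tgfbr2 in microglia-like clusters, where Tgfbr1 is lowest in cluster 16 (125 and 183 CPM); the lower row shows Smad7, Skil and Smad3 in astrocyte-like clusters, where Smad7 is highest in cluster 3 (237 CPM in TBI+IL-25).

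Tgfbr2 encodes the type II receptor, which binds the ligand first. In microglia-like cells it was at 248 CPM (239 to 258) in sham, 240 (234 to 246) in TBI+PBS and 364 (357 to 372) with TBI+IL-25. Sham and TBI+PBS overlapped and TBI+IL-25 stood above them. The ratio was 0.967 for TBI+PBS over sham, 1.47 (1.41 to 1.53) for TBI+IL-25 over sham and 1.52 (1.47 to 1.57) for TBI+IL-25 over TBI+PBS. The last value lay at the edge of the 1.5-fold line and was 1.47 or 1.48 with cells weighed equally, with doublets kept or in cluster 6 alone. In each of the 8 microglia-like clusters the TBI+IL-25 library had the higher Tgfbr2 level of the injury libraries, from 151 against 113 CPM in cluster 16 to 448 against 269 in cluster 1.

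Outside microglia, Tgfbr2 was high in endothelial cell-like cells, at 174, 213 and 297 CPM, in ependymal cell-like cells, at 153 and 189 CPM in the injury libraries, and in fibroblast-like cells, at 76.7 CPM (46.2 to 120) in TBI+PBS and 269 (190 to 369) with TBI+IL-25. Endothelial cell-like intervals overlapped between the injury libraries (186 to 242 and 227 to 381), while fibroblast-like intervals did not, on 23 and 25 cells. Monocyte/macrophage-like cells were at 51.9 CPM of Tgfbr2 in TBI+PBS and 97.5 with TBI+IL-25. T cell-like cells were at 98.3 CPM and 159 CPM, with overlapping intervals. Astrocyte-like cells were at 9.91, 12.6 and 13.8 CPM, or 3.99%, 5.23% and 3.80% of the microglia-like level, where the microglia markers had medians of 3.03%, 3.14% and 1.99%. Subtraction of microglia RNA moved the astrocyte-like Tgfbr2 ratios over sham from 1.27 to 2.10 in TBI+PBS and from 1.40 to 2.76 in TBI+IL-25, past 1.5-fold.

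Smad3 encodes the transcription factor that the receptor phosphorylates. In astrocyte-like cells its level was 11.2 CPM (9.46 to 13.1) in sham, 34.9 (32.3 to 37.7) in TBI+PBS and 61.2 (57.7 to 64.8) with TBI+IL-25. The 3 intervals were apart, with sham lowest. The ratio was 3.13 (2.62 to 3.76) for TBI+PBS over sham, 5.48 (4.62 to 6.54) for TBI+IL-25 over sham and 1.75 (1.59 to 1.93) between the injury libraries. With cells thinned to 1000 UMIs, 1.26%, 3.22% and 5.35% of astrocyte-like cells had a Smad3 UMI. In microglia-like cells Smad3 was at 43.8, 34.7 and 41.5 CPM, so that astrocyte-like cells were at 25.5%, 101% and 148% of the microglia-like level.

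Astrocyte-like cells also came from different clusters by library: cluster 4 was the largest in sham (1486 cells), cluster 10 in TBI+PBS (1232) and cluster 3 in TBI+IL-25 (2767). Clusters 3, 10 and 14 had at most 1 sham cell each, so they may be of those libraries rather than of a cell type. Inside the clusters with sham cells, Smad3 was lowest in sham. In cluster 4 it was at 8.67, 25.5 and 36.6 CPM in sham, TBI+PBS and TBI+IL-25. In cluster 2, the most evenly shared with 946, 1178 and 933 cells, Smad3 was at 17.6, 22.5 and 37.6 CPM, with overlapping intervals between sham and TBI+PBS. The ratio over sham in cluster 2 was 1.28 in TBI+PBS, inside 1.5-fold, and 2.13 in TBI+IL-25.

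Among other classes, Smad3 was at 44.4 CPM (22.2 to 79.5) and 70.7 CPM (33.9 to 130) in fibroblast-like cells of TBI+PBS and TBI+IL-25, and at 33.9 and 30.4 CPM in T cell-like cells. Neuroblast-like cells had 5.53, 3.40 and 6.19 CPM, and oligodendrocyte-like cells 7.80 CPM in TBI+PBS and 12.5 with TBI+IL-25 after 0 UMIs in sham, which allows up to 6.45 CPM (3 UMIs). In microglia-like cells Smad3 did not pass 1.5-fold in any comparison, with ratios of 0.791 (0.706 to 0.887), 0.946 (0.851 to 1.05) and 1.20 (1.09 to 1.31). In cluster 6 alone the microglia-like Smad3 ratios over sham were 1.41 in TBI+PBS and 1.64 with TBI+IL-25.

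Smad7 encodes the inhibitory SMAD that is induced by TGF-beta and shuts off its receptor. In astrocyte-like cells it was at 30.5 CPM (27.6 to 33.6) in sham, 76.1 (72.3 to 80.1) in TBI+PBS and 180 (174 to 187) with TBI+IL-25. The intervals were apart and the order was as for Smad3. The ratios were 2.50 (2.24 to 2.79) and 5.92 (5.35 to 6.58) over sham and 2.37 (2.23 to 2.52) between the injury libraries. The thinned share of astrocyte-like cells with a Smad7 UMI was 2.90%, 6.10% and 13.8%.

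Among the named astrocyte-like clusters, the highest Smad7 levels were in those with at most 1 sham cell. In cluster 3 it was 237 CPM in TBI+IL-25, in cluster 14 145 CPM in TBI+IL-25 and 68.5 in TBI+PBS, and in cluster 10 104 CPM in TBI+PBS. In cluster 2 it was 34.2, 35.9 and 41.3 CPM, with ratios over sham of 1.05 and 1.21 and of 1.15 between the injury libraries, none past 1.5-fold. In cluster 4, with 1486 sham cells, it was 28.7 CPM in sham, 59.5 in TBI+PBS and 54.4 with TBI+IL-25, with ratios over sham of 2.08 (1.68 to 2.56) and 1.90 (1.51 to 2.38). The unnamed astrocyte-marker cluster 13 had 44.9, 45.1 and 150 CPM of Smad7, and its ratio over sham was 3.34 (2.49 to 4.55) in TBI+IL-25. Subtraction of microglia RNA moved the astrocyte-like Smad7 ratios over sham to 4.04 and 10.9, and keeping doublets moved them to 1.63 and 3.68.

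Among named classes oligodendrocyte-like cells had the highest Smad7 level in sham, 546 CPM (481 to 617), near the 561 CPM of unnamed cluster 5, and were at 502 and 583 CPM in the injury libraries. Microglia-like cells were next to them at 489, 409 and 520 CPM, with intervals apart in the injury libraries and overlapping in sham (476 to 502 against 481 to 617). In TBI+PBS, B cell-like cells at 463 CPM (320 to 646) and T cell-like cells at 383 (316 to 461) could not be set apart from either neighbour beyond their intervals except T cell-like from oligodendrocyte-like cells. Endothelial cell-like cells were at 229, 319 and 399 CPM of Smad7. Monocyte/macrophage-like cells were low, at 107 and 81.2 CPM in the injury libraries. The microglia-like Smad7 ratios were 0.836 and 1.06 over sham and 1.27 between the injury libraries. In cluster 12 alone, with 81 sham cells, the ratios over sham were 0.472 (0.357 to 0.628) and 0.438 (0.328 to 0.590).

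Skil encodes SnoN, a nuclear repressor of SMAD target genes. In astrocyte-like cells it was at 16.1 CPM (14.0 to 18.3) in sham, 65.0 (61.5 to 68.7) in TBI+PBS and 78.5 (74.6 to 82.6) with TBI+IL-25. Sham stood apart from both injury libraries, which were close. The ratios over sham were 4.05 (3.51 to 4.70) and 4.89 (4.24 to 5.67), and between the injury libraries 1.21 (1.12 to 1.30). In cluster 2 alone Skil was at 21.9, 32.8 and 11.5 CPM, so the ratio over sham was 1.5 in TBI+PBS and, in the other direction, 0.525 in TBI+IL-25. In cluster 4 it was 13.4, 36.5 and 17.3 CPM. In clusters 10 and 3, with at most 1 sham cell each, it was 90.8 CPM (cluster 10, TBI+PBS) and 100 CPM (cluster 3, TBI+IL-25). Subtraction of microglia RNA moved the class ratios over sham to 10.5 and 13.6, and keeping doublets moved them to 2.73 and 3.18.

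In microglia-like cells as a class Skil was at 355, 299 and 336 CPM, within 1.5-fold in every comparison. Single clusters passed that line. Skil ratios over sham in cluster 12, with 81 sham cells, were 0.498 (0.366 to 0.686) in TBI+PBS and 0.533 (0.389 to 0.738) with TBI+IL-25. Between the injury libraries they were 1.64 in cluster 16 and 1.52 in cluster 18. Neutrophil-like cells of TBI+IL-25 were at 378 CPM of Skil (271 to 513), level with microglia-like cells, and monocyte/macrophage-like cells at 175 and 172 CPM. Endothelial cell-like cells were at 79.0, 85.8 and 131 CPM with overlapping intervals. Oligodendrocyte-like cells, where Smad7 was high, had 30.1, 20.2 and 52.7 CPM of Skil.

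The levels of 10 early response and heat shock genes, chosen after seeing the data, were read beside those of Smad7, Skil and Smad3: Fos, Fosb, Jun, Junb, Egr1, Atf3, Dusp1, Ier2, Hspa1a and Hspa1b. Their summed level in astrocyte-like cells was 727 CPM in sham, 2996 in TBI+PBS and 5082 with TBI+IL-25, and 8 of 10 were at least 1.5-fold higher than sham in each injury library, beside 13.1% and 19.1% of all genes. Fosb was lower in TBI+PBS, with a ratio of 0.645 (0.549 to 0.758). In microglia-like cells the sums were 14782, 12500 and 17417 CPM, with Jun alone at 7170, 4272 and 4419. There 4 of 10 were at least 1.5-fold higher and 1 lower in TBI+PBS over sham, beside 12.9% and 19.9% of all genes. In TBI+IL-25 over sham 6 were higher and 1 lower, beside 17.4% and 29.9%. The part of these 10 genes in the astrocyte-like Smad7, Skil and Smad3 levels was not tested.

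For each gene, the genes with the most similar profile were taken, up to 3, by Pearson r of log2(CPM + 1) over 18 class-by-library points with at least 50 cells, among 11112 genes; the points share libraries and depths. Skil was most like the early response genes Ier5 (r = 0.939), Btg2 (0.936) and Klf6 (0.928). Tgfb1 was most like Lgals9 (0.957), Irf5 (0.955) and Lyn (0.945), which are expressed in myeloid cells. Tgfb2 was most like Hspb8 (0.952) and Slco1c1 (0.943). Tgfbr1 was most like Zfhx3 (0.952), Gm47097 (0.949) and Gm2629 (0.946), and Tgfbr2 most like Mgat4a (0.958), Map3k8 (0.945) and Klhl6 (0.942). Smad7 was most like Tm9sf3 (0.916), Dusp7 (0.903) and Zfpm1 (0.874). Smad3 had lower values, led by Camk2d (0.882), Iffo2 (0.877) and Tmem243 (0.864), and scarce Tgfb3 was nearest to Nectin1 (0.926), Agtpbp1 (0.891) and Tnfaip6 (0.873).

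Other genes of the pathway were read from 7 lists, of 112 genes. The shares to set beside their counts in microglia-like cells are 12.9% of all genes higher and 19.9% lower in TBI+PBS over sham, and 17.4% and 29.9% in TBI+IL-25 over sham. In astrocyte-like cells they are 13.1% and 13.7%, and 19.1% and 35.2%. Of 20 microglia genes known to depend on TGF-beta, all were measured in microglia-like cells, and 9 were at least 1.5-fold lower and 1 higher in TBI+PBS than in sham. In TBI+IL-25, 12 were lower and 0 higher. The median log2 ratio was -0.56 and -0.77, beside -0.16 and -0.21 over all genes. P2ry12, the ADP receptor by which microglia sense damage, was at 4031, 1413 and 879 CPM, and Gpr34, a lysophospholipid receptor, at 2645, 1318 and 841. Slc2a5, a fructose transporter, was at 285, 95.6 and 118 CPM. Gas6, a ligand of TAM receptors, was the gene that was higher, at 191, 348 and 206 CPM. In astrocyte-like cells 2 of the 20 were higher and 4 lower in TBI+PBS over sham, and 3 higher and 12 lower in TBI+IL-25 over sham, beside the lower microglia marker sums given above. Jun, on this list, and Junb, on the list of target genes below, are also among the early response genes above.

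The list of TGF-beta target genes went the other way in microglia-like cells: of 16 measured in TBI+PBS over sham, 9 were higher and 2 lower, with a median log2 ratio of 0.88. In TBI+IL-25 over sham, 9 of 17 were higher and 2 lower, with a median of 1.5. Fn1, fibronectin, was at 0.896, 40.6 and 18.1 CPM, Vim, vimentin, at 4.30, 88.2 and 27.2, and Cdkn1a, a cell cycle inhibitor, at 34.3, 138 and 286. Fn1 is also on the monocyte/macrophage marker list, and the part of such cells or their RNA here was not tested. Id3, a dominant-negative helix-loop-helix protein, was lower at 11.8, 6.27 and 6.76 CPM. In astrocyte-like cells 13 of 20 target genes were higher and 1 lower in TBI+PBS over sham, and 15 of 21 higher and 2 lower in TBI+IL-25 over sham, with medians of 1.47 and 2.07 beside -0.04 and -0.25 over all genes.

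Timp1, a metalloproteinase inhibitor, was at 0.222, 156 and 214 CPM in astrocyte-like cells, with 3 UMIs in sham, so that its ratio of 701 in TBI+PBS had an interval of 240 to 3403. Col1a1, a fibrillar collagen, was lower in both, at 30.5, 19.3 and 5.76 CPM, and Id3 was at 692, 547 and 392. Col1a1 is also on the fibroblast marker list, and the part of RNA of such cells here was not tested.

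Of the genes for latency and activation of the ligand, 5 of 10 measured in astrocyte-like cells were higher and 0 lower in TBI+PBS over sham, with a median log2 ratio of 0.60. In TBI+IL-25, 5 of 9 were higher and 1 lower, with a median of 1.04. Itgav, the integrin chain that pairs with beta chains to free the latent ligand, was at 119, 273 and 409 CPM. Fbn1, the microfibril protein that holds latent complexes in the matrix, was at 1.70, 2.70 and 8.14 CPM. Nrros, which anchors latent TGF-beta on microglia, was the lower gene at 22.9, 31.2 and 10.5 CPM in astrocyte-like cells, where the summed microglia markers were also lower in TBI+IL-25. In microglia-like cells 1 of 7 and 2 of 8 were higher, and 1 and 2 lower, near or under the shares of all genes, with medians of 0.17 and -0.03 beside -0.16 and -0.21. Thbs1, thrombospondin, which activates latent ligand, was at 2.87, 14.2 and 26.9 CPM there, and Itgb5, an integrin beta chain, at 1191, 1013 and 658.

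Among other receptors and co-receptors in microglia-like cells, 1 of 8 was higher and 4 lower in TBI+PBS over sham, and 2 of 9 higher and 3 lower in TBI+IL-25, the latter near the 17.4% and 29.9% of all genes. The medians were -0.53 and -0.13, beside -0.16 and -0.21 over all genes. Eng, the co-receptor endoglin, was at 85.3, 39.9 and 33.5 CPM, Acvr2b, an activin type II receptor, at 56.1, 24.5 and 6.87, and Acvrl1 (ALK1), a type I receptor, at 19.2, 47.7 and 40.9. In astrocyte-like cells 3 of 10 were higher and 1 lower in TBI+PBS, and 5 of 10 higher and 3 lower in TBI+IL-25. Acvr1, a BMP and activin type I receptor, was at 23.4, 53.3 and 74.0 CPM there, and Acvr1b, the activin receptor ALK4, at 9.47, 20.6 and 43.3.

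Among other SMADs and partners, 1 of 7 was higher and 1 lower in microglia-like cells in TBI+PBS over sham and 0 in either direction in TBI+IL-25. In astrocyte-like cells 2 of 8 were higher and 0 lower, and then 3 higher and 2 lower. Ski, the SMAD repressor related to Skil, was at 40.3, 78.7 and 98.9 CPM in astrocyte-like cells and Smad1, a BMP-activated SMAD, at 35.4, 55.0 and 93.6. Smad1 in microglia-like cells was at 74.9, 45.9 and 50.8 CPM.

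Other feedback and inhibitory genes were higher in astrocyte-like cells for 4 of 13 in TBI+PBS and 6 of 13 in TBI+IL-25, with 0 lower in both. Pmepa1, which blocks SMAD recruitment to the receptor and is a TGF-beta target itself, was at 63.4, 166 and 132 CPM in astrocyte-like cells. In microglia-like cells it was lower with injury, at 1084, 582 and 496 CPM. Tgif1, a SMAD corepressor, was at 5.70, 13.8 and 24.7 CPM in astrocyte-like cells. In microglia-like cells 2 of 13 were higher in each comparison with sham, and 2 and 3 were lower.

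The list of activin and BMP ligands, the related branches of the family, also held secreted antagonists such as Fst, Nog and Chrdl1. Its genes were mostly unmeasured in microglia-like cells. There 1 of 17 in TBI+PBS over sham (Gdf15) and 2 of 17 in TBI+IL-25 over sham (Gdf15 and the antagonist Chrdl1) had 50 UMIs. All of these were higher. Gdf15, a stress-induced ligand, was at 1.61, 6.52 and 15.9 CPM there and at 0.962, 3.63 and 5.39 in astrocyte-like cells. In astrocyte-like cells 1 of 8 was higher and 3 lower in TBI+PBS, and 1 of 9 higher and 4 lower in TBI+IL-25. Inhbb, an activin subunit, was at 25.4, 13.8 and 15.9 CPM.

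Between the injury libraries, 7 of 17 target genes were higher and 4 lower in microglia-like cells of TBI+IL-25 than of TBI+PBS, and 7 of 22 higher and 1 lower in astrocyte-like cells. Of the TGF-beta-dependent microglia genes, 0 of 20 were higher and 6 lower in microglia-like cells. In astrocyte-like cells 4 of 10 latency genes, 4 of 9 receptors and 3 of 13 feedback genes were higher, and 2, 2 and 0 were lower. Over all genes, 9.77% were higher and 13.6% lower in microglia-like cells, and 9.32% higher and 26.1% lower in astrocyte-like cells, so the lower counts of latency and receptor genes were near or under the background. Acvr1b in astrocyte-like cells had a ratio of 2.11 (1.87 to 2.38), while Thbs1 was at 4.00 CPM in TBI+PBS and 1.90 with TBI+IL-25.

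Over all kept cells, with no class called, Tgfbr1 was at 639, 259 and 250 CPM and Tgfb1 at 259, 161 and 101. Tgfb2 was at 30.3, 36.8 and 46.7 CPM and Smad3 at 28.1, 31.0 and 45.0. Smad7 was at 293, 256 and 366 CPM, Skil at 195, 177 and 204, and Tgfbr2 at 137, 125 and 194. These levels mix the shares of cell classes with levels per cell, and the classes took different shares of each library.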

How the data were processed

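Single-cell RNA was measured in 3 libraries, grouped by their titles. The deposited files hold raw UMI counts for each gene in each barcode, not normalized. The authors ran, per the file headers, Cell Ranger 7.1.0 (sham, TBI+PBS) or 7.2.0 (TBI+IL-25). The submitters' processing notes list GRCm39, Seurat 4.4.0, bcl2fastq 5.0.1 and Cell Ranger 7.2.0, without roles; a difference in version between libraries cannot be told apart from the groups. How barcodes were chosen, and whether counting used strand, is not given in the sources used here.

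Here, a cell was kept with at least 500 UMIs and 300 genes, if mitochondrial genes gave no more than 20% of its UMIs. Doublets were called per library with Scrublet in scanpy 1.11.5 (score over 0.2; 201, 299 and 640 removed). The libraries were clustered together without integration (2000 variable genes, without the 8 studied, 30 components, 15 neighbours, Leiden resolution 1), giving 29 clusters. A cluster was named where at least 3 markers of a list were in 20% of its cells at 2 times the median over clusters, and no other list led its 10 top genes. Shallow clusters without own markers among them stayed unnamed. UMIs were summed per class and library and given as CPM with exact Poisson intervals. Ratios have conditional binomial intervals, shares Clopper-Pearson intervals, all at 95%. With 1 library per group no test was possible. Ratio and interval functions were tested on simulated data. Named pathway genes were, per list, class and comparison with sham, up to 2 with the highest and 2 with the lowest ratio past 1.5-fold, in order of the bound of the interval that lay closest to 1; the text gives a part of them, and some results are not reported here. Members, lists and alternatives were chosen with earlier results of these data known. Figures were drawn with Matplotlib 3.10.9.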

Additional observations from a re-analysis of the deposited data

Results flagged for a closer look

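Smad3, Smad7 and Skil had ratios on opposite sides of 1 in astrocyte-like and microglia-like cells of the same pair of libraries. For TBI+PBS over sham, the log2 ratio in astrocyte-like cells minus that in microglia-like cells was 1.98 for Smad3, 1.58 for Smad7 and 2.27 for Skil. For TBI+IL-25 over sham it was 2.37 for Skil. With 1 library per group these differences between classes were not tested.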

How the results depend on the processing

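Results were recomputed under 9 other settings, and under 1 chosen after seeing the data (unnamed clusters 5 and 13 counted into their class). Of the ratios recomputed, 402 moved by less than their interval, 144 by more and 3 turned. The 3 had been past 1.5-fold and crossed to the other side of 1. After subtraction of the other class's RNA, Tgfb2 in microglia-like cells, TBI+IL-25 over TBI+PBS, turned to 0.847. Tgfb1 in astrocyte-like cells, TBI+IL-25 over sham, turned to 2.22 there. Skil in astrocyte-like cells, TBI+IL-25 over sham, turned to 0.525 in the most evenly shared cluster. Ratios inside 1.5-fold that crossed 1 are not among the 3. Examples over sham in TBI+PBS are astrocyte-like Tgfbr1, from 0.834 to 2.57, and microglia-like Smad3, from 0.791 to 1.41. Astrocyte-like Skil between the injury libraries went from 1.21 to 0.349. Of the list medians, 2 that were past 1.5-fold turned. That of TGF-beta-dependent microglia genes in astrocyte-like cells, TBI+IL-25 over TBI+PBS, went from -0.82 to 0.026 with subtraction. The subtraction was scaled on the 10 microglia markers, all of which are on this list of 20 genes. A move of this median was therefore largely set in advance, and nothing was read from it. The median of the list of activin and BMP ligands and antagonists in microglia-like cells, TBI+IL-25 over sham, went from 1.98 to -0.311 with no count minimum.

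Counts of the 8 genes past 1.5-fold moved as follows. For microglia-like cells, TBI+IL-25 over sham, the count higher became 1 with median-of-ratios size factors, doublets kept, classes from each cell's marker score or no count minimum, and 2 in the shared cluster. For TBI+IL-25 over TBI+PBS it became 1 with doublets kept, resolution 0.5, marker scores, cells weighed equally, subtraction, or clusters 5 and 13 counted in, and 0 in the shared cluster; the count lower became 0 with size factors. For TBI+PBS over sham the count higher became 1 with doublets kept and the count lower 0 in the shared cluster. In astrocyte-like cells, TBI+PBS over sham, the count lower became 2 with doublets kept or in the shared cluster and 0 with cells weighed equally, and the count higher 6 with subtraction. For TBI+IL-25 over sham the count higher became 7 with subtraction and 2 in the shared cluster, and the count lower 1 with subtraction. For TBI+IL-25 over TBI+PBS the count lower became 1 with size factors, doublets kept or the shared cluster, and the count higher 1 in the shared cluster. The causes were not tested beyond what each alternative changes. Size factors shifted all log2 ratios by 0.14, 0.25 and 0.11 in microglia-like and 0.02, 0.21 and 0.19 in astrocyte-like cells (TBI+PBS over sham, TBI+IL-25 over sham, TBI+IL-25 over TBI+PBS).

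In microglia-like cells Tgfb3 had 1, 3 and 6 UMIs and Tgfb2 14, 14 and 36, so their ratios had wide intervals. No paired analysis was possible because each group has 1 library and no test was made.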
